A study of Homo sapiens with 4 samples.

Results

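The 10 genes described here encode enzymes of the kynurenine pathway: IDO1, TDO2, AFMID, KMO, KYNU, HAAO, QPRT, AADAT, KYAT1 and KYAT3. They are 10 of the 22841 genes in the count tables, and 6 of them passed the filter on low counts that left 13247 genes for testing. The genes were named for their place in the pathway, but the set was chosen by the knockdown-to-control difference in counts as well, since it was already known that KMO stood among the largest rises. One transcript row per gene was selected on its mean count. Every member value between the groups is therefore given as a description, without a p-value, and the calls of the fit serve only to say on which side of its threshold a gene lay. RNA was sequenced from PC-3M-luc, a single human prostate carcinoma line of metastatic, androgen-independent origin that carries a luciferase reporter. The knockdown cells (2 libraries) were transfected with RNAi against LSD1, the histone demethylase encoded by KDM1A. The sample labels say RNAi while the series design text says KO, and the labels are followed here. The control cells (2 libraries) were transfected with control RNAi. Both groups were grown in serum-supplemented EMEM, transfected with the same lipid reagent and harvested 72 h later, and the labels call the libraries of a group biological replicates. The sources used here give no duplex sequence, and only one kind of LSD1 RNAi is labelled, so the knockdown cannot be set against another duplex.

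The kynurenine pathway is the main route of tryptophan breakdown in human tissues. IDO1 or TDO2 opens the indole ring, AFMID releases kynurenine, and KMO, an enzyme of the mitochondrial outer membrane, hydroxylates it. KYNU, HAAO and QPRT then lead to NAD, while the aminotransferases AADAT, KYAT1 and KYAT3 divert kynurenine to kynurenic acid. The pathway is best known in liver, where TDO2 is abundant, and in macrophages and dendritic cells, where interferon-gamma induces IDO1. In tumours it is studied because tryptophan loss and kynurenine restrain T cells.

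The stretches of DNA before 2 members are shown first because KMO had the largest difference of the members, and because AFMID starts back to back with a cell cycle gene that differed in the other direction. Both were read from the RefSeq promoter table for GRCh38.p14, not from the libraries. That table held a window for 9 of the 10 members, all except IDO1. The KMO stretch is the 250 bases before its start, chr1:241532128-241532377 on the plus strand. The second is the 157 bases between the start of AFMID and the nearer start of TK1, chr17:78187205-78187361 on the plus strand, with TK1 running off its left end and AFMID off its right end. Capitals mark matches to any of 6 motifs.
KMO: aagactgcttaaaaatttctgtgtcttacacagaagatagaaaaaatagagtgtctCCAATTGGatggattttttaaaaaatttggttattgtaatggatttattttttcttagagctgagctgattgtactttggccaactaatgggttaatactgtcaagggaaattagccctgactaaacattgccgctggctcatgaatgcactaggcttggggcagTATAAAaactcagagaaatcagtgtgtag
AFMID and TK1: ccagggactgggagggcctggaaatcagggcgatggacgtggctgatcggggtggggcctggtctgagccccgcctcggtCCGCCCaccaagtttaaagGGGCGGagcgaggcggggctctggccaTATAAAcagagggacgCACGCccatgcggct

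The motifs were searched on both strands. They were the CCAAT box, the TATA box as TATAAA, the GC box as GGGCGG, the E-box of SNAI repressors as CAGGTG, the core of the aryl hydrocarbon receptor element as GCGTG, and the STAT core as TTCNNNGAA. The KMO stretch held the TATA box 29 bases before the start and a pair of overlapping CCAAT matches, one on each strand. The interval between AFMID and TK1 held the GC box once on each strand, the TATA box 31 bases before the AFMID start, and the receptor core on the minus strand. Over all 35116 windows of 300 bases in the table, the TATA box was present in 11.5%, the CCAAT box in 34.6%, the GC box in 45.0% and the receptor core in 36.5%. Of the 9 members, 4 had the TATA box, 6 the CCAAT box, 5 the GC box and 2 the receptor core in any window. As a member can have several windows, these counts are not shares per window. The E-box was in 20.6% of windows and in those of 0 of the 9 members. The STAT core was in 7.66% of windows, and among the members in a window of KYNU and a window of KYAT1. The other KYAT1 window lacked it. These matches describe letters and show neither binding nor use.

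The libraries held 12040681 and 12831374 gene counts in the knockdown group, and 12474183 and 12410719 in the control group. KDM1A had 218 and 234 counts in knockdown libraries, against 2920 and 2892 in control libraries, so the knockdown left 7.59% of the control level in CPM, the counts scaled to the normalized library size. Of 6 epithelial markers all were detected, with summed levels of 1130 and 1177 CPM in knockdown libraries and 1074 and 1094 CPM in control libraries, and EPCAM, KRT8 and CDH1 were called higher and ELF3 lower. The luminal prostate genes KLK3, KLK2 and FOLH1 had 0 counts in all 4 libraries, while ACP3 had 62 and 64 counts in knockdown libraries against 22 and 29 in control libraries and was called higher. Among cells known for this pathway, the hepatocyte markers reached at most 13 counts. The macrophage and dendritic cell markers CD163, CLEC9A and AIF1 were at 0, and that list summed to 47.1 and 48.5 CPM in knockdown libraries against 88.4 and 87.0 CPM in control libraries, nearly all of it CD68. LYZ in that list had 17 and 13 counts in knockdown libraries, against 4 and 2 in control libraries, and was called higher. The lymphocyte genes PTPRC, CD3E, CD3D and MS4A1 were at 0, while CD79A had 15 and 27 counts in knockdown libraries against 50 and 33 in control libraries and was called lower. In the list for fibroblasts and endothelium, COL1A2 and KDR were called higher, PECAM1 was called lower and COL1A1 was not called. KDR had 708 and 677 counts in knockdown libraries, against 253 and 347 in control libraries, and LUM was at 0. The part of any of these markers in the members' values was not tested.

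The pathway was expressed in part. In all 4 libraries IDO1, AFMID, KMO and the 3 kynurenine aminotransferases had counts. TDO2 and QPRT had 0 counts, and KYNU and HAAO had at most 2 counts in any library. The KMO counts may include reads of OPN3, a gene that overlaps it, so whether KMO itself was expressed was not tested. Of the 6 tested members, 4 were called higher in knockdown cells, 0 lower, and 2 did not pass, at an adjusted p under 0.05 in edgeR's quasi-likelihood test. Among all tested genes 18.2% were called higher, 17.9% lower and 36.1% in either direction. The CPM of the groups did not overlap for any of the 6 tested members, each higher in both knockdown libraries, where 33.7% of all tested genes showed that and 67.2% did not overlap in either direction. Log2 fold changes are of knockdown over control and are given ± their standard error (SE) from the fit. The median of the 6 was 0.34, against 0.00 over all tested genes. Apart from KMO, the members called had log2 fold changes of 0.29 to 0.38, below the median absolute change of 0.48 over all called genes. In bulk RNA, more cells expressing a gene and more RNA per cell cannot be told apart.

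**Figure D1:**
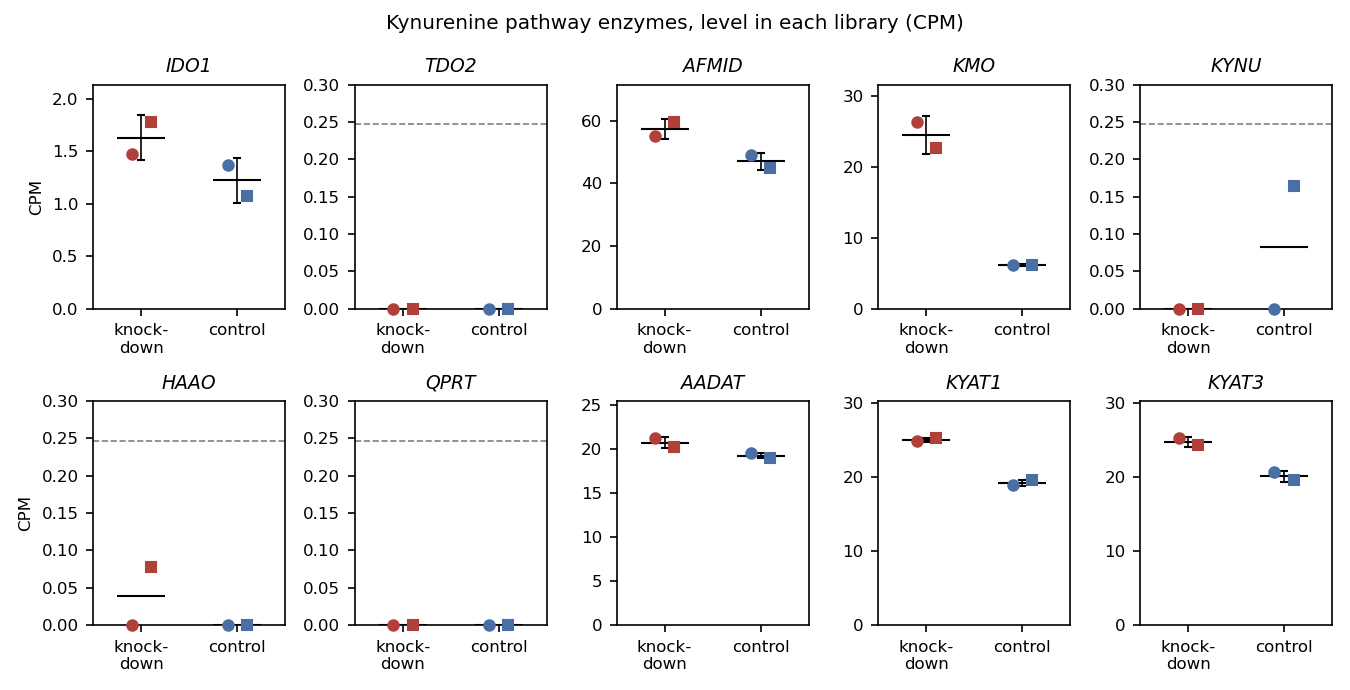
Level of each of the 10 enzymes in CPM, with knockdown libraries in red left of control libraries in blue; circles are replicate 1, squares replicate 2, black lines the mean with SD for tested members. KMO shows the widest gap, and the dashed line in the panels of TDO2, KYNU, HAAO and QPRT is the level that 3 counts would give, 0.247 CPM in the shallowest library.

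The first step of the pathway was barely expressed. IDO1, the interferon-inducible dioxygenase, had 18 and 23 counts in knockdown libraries, against 17 and 13 in control libraries. That is 1.47 and 1.78 CPM in knockdown libraries, against 1.37 and 1.07 CPM in control libraries. The knockdown values lay higher, but the lowest knockdown and highest control library were 1 count apart. The log2 fold change of IDO1 was 0.41 ± 0.37 (SE), and 1.96 standard errors to each side ran from -0.31 to 1.14, a range that holds both a small fall and a rise of over 2 times. TDO2, the hepatic dioxygenase for the same reaction, had 0 counts in every library, which allows up to 0.232 to 0.247 CPM per library from a floor of 3 counts (counting error only).

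AFMID, the formamidase that turns N-formylkynurenine into kynurenine, was the most abundant member. It had 674 and 771 counts in knockdown libraries, against 608 and 546 in control libraries. In CPM it averaged 57.4 ± 3.12 in knockdown cells and 46.9 ± 2.83 in control cells (SD, n = 2 each). Both knockdown libraries lay above both control libraries, by 1.22-fold in the fit. On the log2 scale this is 0.29 ± 0.09 (SE). AFMID was called higher, but not without control replicate 2, where the log2 fold change was 0.23, nor without knockdown replicate 2, where it was also 0.23.

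The deposited tables hold 3 transcript rows for AFMID, which share reads. The 2 coding rows gave the same counts to within 1 count in each library. The noncoding row NR_027083 had 225 and 257 counts in knockdown libraries, against 235 and 248 in control libraries. The knockdown libraries gave both the lowest and the highest of these 4 counts, so the noncoding row did not separate the groups as the coding rows did. Its mean was 19.1 CPM in knockdown cells and 19.7 CPM in control cells.

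KMO, which converts kynurenine to 3-hydroxykynurenine, had by far the largest difference of the 10. It had 322 and 293 counts in knockdown libraries, against 77 and 74 in control libraries. The levels were 26.4 and 22.6 CPM in knockdown libraries, against 6.20 and 6.09 CPM in control libraries. The control libraries were nearly alike, the knockdown libraries differed from each other 1.16-fold, and the groups stood about 4 times apart, at 399% of the control mean. The log2 fold change of KMO was 1.99 ± 0.15 (SE), and 29 of the 13247 tested genes had a higher one. It stayed between 1.87 and 2.10 across the main setting and the 12 others tried, and was called in each.

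The 3 enzymes that follow KMO toward NAD were not detected above a few reads. KYNU, the kynureninase, had 0 and 0 counts in knockdown libraries, against 0 and 2 in control libraries. HAAO, which opens the ring of 3-hydroxyanthranilate, had 0 and 1 counts in knockdown libraries, against 0 and 0 in control libraries. QPRT, which makes nicotinate mononucleotide from quinolinate, had 0 counts in all 4 libraries. All these values are under the floor of 3 counts per library, so no fold can be given for these genes. The higher KMO counts, with any OPN3 reads among them, came from cells where the next enzymes were not detectable at this depth.

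The 3 kynurenine aminotransferases were all expressed, and their fitted levels in knockdown cells were 1.08 to 1.30 times those in control cells. AADAT, a mitochondrial enzyme that also acts on the lysine intermediate aminoadipate, had 259 and 262 counts in knockdown libraries, against 242 and 231 in control libraries. At 20.7 ± 0.674 CPM in knockdown cells and 19.3 ± 0.332 CPM in control cells (SD, n = 2 each) it had the smallest fold difference of the tested members. The log2 fold change of AADAT was 0.11 ± 0.12 (SE), with an interval of 1.96 standard errors from -0.13 to 0.34, and it was not called. A second AADAT row, NM_182662, had 222 and 228 counts in knockdown libraries, against 203 and 192 in control libraries.

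KYAT1, also known as a glutamine transaminase, had 303 and 326 counts in knockdown libraries, against 235 and 237 in control libraries. This was 24.8 and 25.2 CPM in knockdown libraries, against 18.9 and 19.5 CPM in control libraries. The gap between the groups was well over the spread within them, and on the log2 scale it was 0.38 ± 0.12 (SE). KYAT1 was called higher, and the call was lost without control replicate 1, at a log2 fold change of 0.36, and without knockdown replicate 2, at 0.37.

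KYAT3, its paralogue, had 308 and 314 counts in knockdown libraries, against 256 and 238 in control libraries. It averaged 24.7 ± 0.669 CPM in knockdown cells and 20.1 ± 0.722 CPM in control cells (SD, n = 2 each). The difference of 0.30 ± 0.12 (SE) on the log2 scale was just past the threshold. Leaving out any one of the 4 libraries ended the call, with log2 fold changes between 0.26 and 0.33. DESeq2, with log2 fold changes of 0.29 for AFMID, 0.38 for KYAT1 and 0.30 for KYAT3, called none of these 3 genes, while it called KMO.

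Per kilobase of the counted transcript, the order of levels was the same in both groups. In knockdown cells AFMID stood at 33.8 CPM per kb, KYAT1 at 13.1, KYAT3 at 11.95, AADAT at 9.17, KMO at 4.66 and IDO1 at 0.775. In control cells AFMID stood at 27.6 CPM per kb, KYAT1 at 10.1, KYAT3 at 9.71, AADAT at 8.51, KMO at 1.17 and IDO1 at 0.582. KYAT1 and KYAT3 overlapped in the control libraries, where KYAT1 had 9.94 and 10.3 CPM per kb and KYAT3 had 9.96 and 9.46, and did not overlap in the knockdown libraries. Every other neighbouring pair in this order was apart in all 4 libraries. KMO thus stayed below the aminotransferases in knockdown cells, at 4.30 to 5.01 CPM per kb, a level that includes any OPN3 reads over shared exons. The KYAT3 levels likewise include any reads of RBMXL1, a gene that shares exon bases with it. How far such reads set the place of KYAT3 in the order was not tested.

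**Figure D2:**
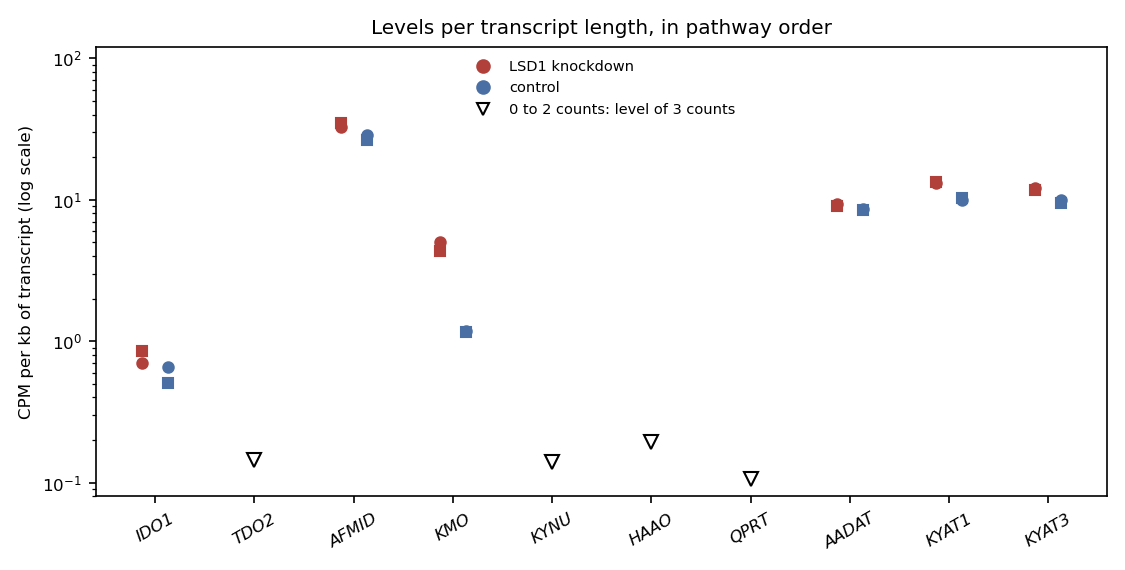
Level per kilobase of transcript (log axis) for the 10 enzymes in pathway order, knockdown libraries in red left of control libraries in blue, circles replicate 1 and squares replicate 2. KMO lies at 4.66 CPM per kb in knockdown cells, against 1.17 in control cells, and below the aminotransferases in both; open triangles give the level of 3 counts for the 4 genes with 0 to 2 counts.

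The KMO counts share sequence with OPN3, the gene of the light-sensitive receptor encephalopsin, which lies on the opposite strand. In GENCODE 29 the exons of the counted KMO transcript overlap those of the counted OPN3 transcript over 1568 bases. This is 29.8% of the KMO transcript of 5261 bases and 59.8% of the OPN3 transcript of 2620 bases. OPN3 had 481 and 508 counts in knockdown libraries, against 191 and 209 in control libraries. It averaged 39.3 ± 0.0805 CPM in knockdown cells and 16.3 ± 1.29 CPM in control cells (SD, n = 2 each). On the log2 scale OPN3 was higher by 1.27 ± 0.11 (SE). The levels assigned to both genes were thus higher, by 18.4 CPM for KMO and 23.0 CPM for OPN3. No p-value is given for OPN3, since it may share reads with KMO, a member chosen with its rise known.

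The ratio of KMO to OPN3 counts was 0.669 and 0.577 in knockdown libraries, against 0.403 and 0.354 in control libraries. Counting is not stated to use strand, so reads from the 2 genes cannot be told apart over the shared bases. How much of either gene's level or difference comes from shared reads was not tested. CHML, a Rab escort gene on the OPN3 strand whose start RefSeq places at the same base as that of OPN3, had 2329 and 2333 counts in knockdown libraries, against 2139 and 2113 in control libraries. CHML was not called, at 0.10 ± 0.08 (SE) on the log2 scale (edgeR adjusted p = 0.356).

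AFMID lies next to TK1, which encodes thymidine kinase, an enzyme of DNA precursor supply that is made in S phase. RefSeq lists 2 starts for TK1, 158 and 310 bases from that of AFMID, and the sequence shown above ends at the nearer one. The window of the farther start also holds the CCAAT box at positions -77 and -46 from that start. The genes run in opposite directions and share no exon bases. TK1 had 366 and 387 counts in knockdown libraries, against 622 and 598 in control libraries. In CPM it averaged 29.9 ± 0.0363 in knockdown cells and 49.7 ± 0.605 in control cells (SD, n = 2 each). TK1 fell by 0.73 ± 0.10 (SE) on the log2 scale (edgeR adjusted p = 4.39e-07), while AFMID was higher in the same libraries. The ratio of AFMID to TK1 counts was 1.84 and 1.99 in knockdown libraries, against 0.977 and 0.913 in control libraries.

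**Figure D3:**
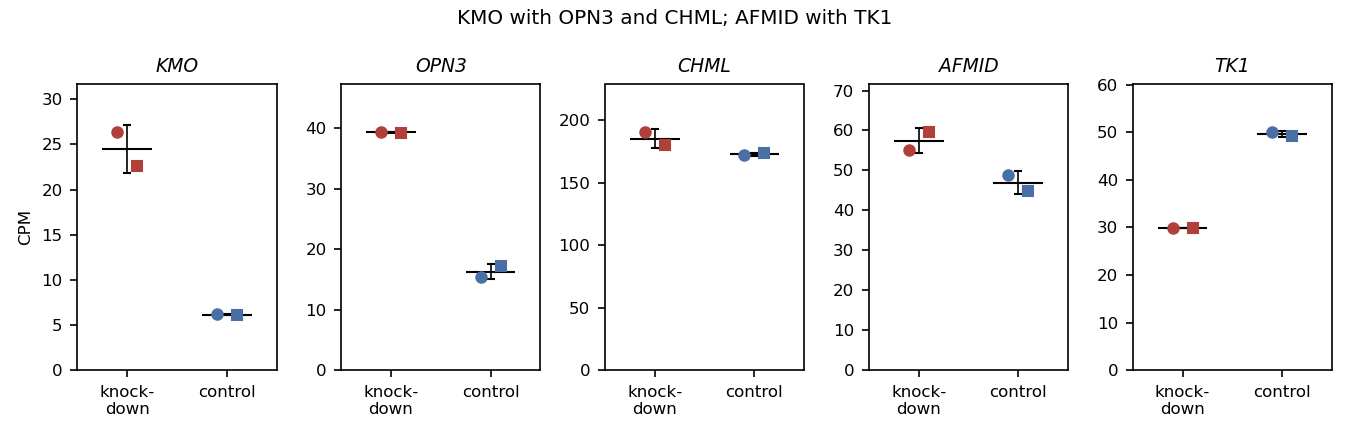
CPM in each library for KMO with OPN3 and CHML, and for AFMID with TK1, knockdown in red left of control in blue; circles are replicate 1, squares replicate 2 and black lines mean and SD. KMO and OPN3 are both higher in knockdown libraries, CHML differs little, and AFMID and TK1 differ in opposite directions.

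KYAT3 shares its RefSeq start and 437 exon bases, 21.1% of its transcript, with RBMXL1 on the same strand. RBMXL1, a gene for an RNA-binding protein of the RBMX family, had 1319 and 1322 counts in knockdown libraries, against 1116 and 1329 in control libraries. It is the more abundant of the pair, its groups overlapped after normalization, and it was not called, at 0.08 ± 0.09 (SE) on the log2 scale (edgeR adjusted p = 0.546). The KYAT3 value is uncertain to the extent that reads of the shared exons come from RBMXL1, and this was not tested. LRRC8A, a volume-regulated anion channel gene that starts beside KYAT1 on the other strand, shares no counted exon bases with it and rose by 0.49 ± 0.08 (SE, edgeR adjusted p = 1.59e-05). SPOUT1, on the far side of KYAT1, was not called, at -0.01 ± 0.09 (SE, edgeR adjusted p = 0.927). CTSO, a cathepsin gene beside TDO2, rose by 0.86 ± 0.19 (SE, edgeR adjusted p = 0.000436), at 115 and 105 counts in knockdown libraries against 62 and 56 in control libraries. ASIC5 on the other side of TDO2 had 0 counts throughout, and OXER1 beside HAAO had 0 to 2.

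**Figure D4:**
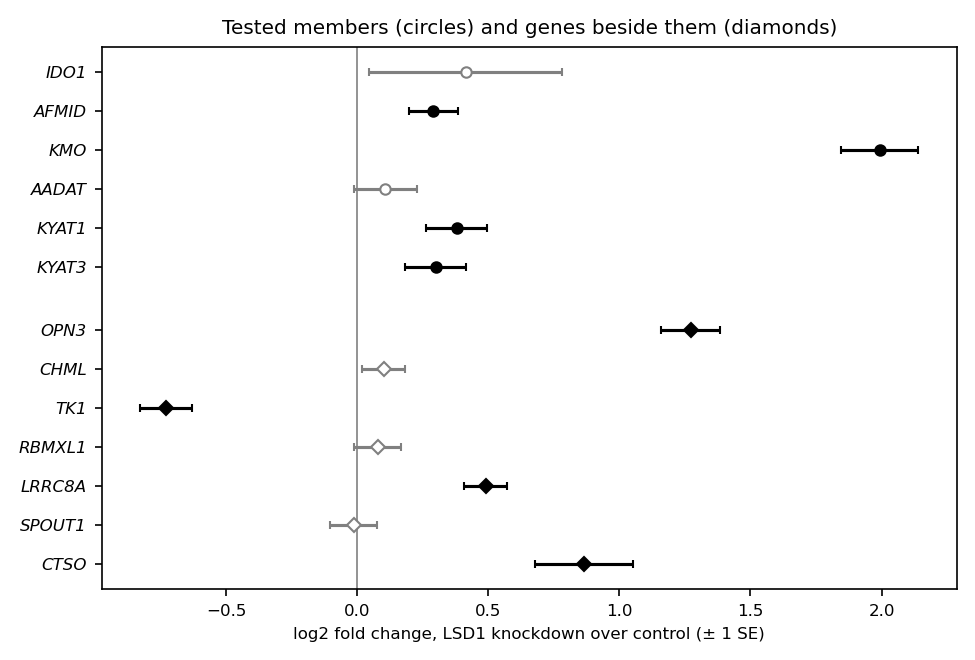
Log2 fold change of knockdown over control with 1 standard error for the 6 tested members (circles) and for genes beside or over the members (diamonds); filled symbols were called, open grey ones were not. KMO at 1.99 stands apart from the other members, which lie between 0.11 and 0.41. Among the genes beside or over the members, OPN3 lies at 1.27, CTSO at 0.86 and TK1 at -0.73.

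Of genes averaging 5 CPM or more, the 5 nearest to KMO by their centred log2 CPM over the 4 libraries were SPARC, FAM20A, ARMC9, ARL6IP1 and EFR3A. Out of 10934 genes compared, these had Euclidean distances of 0.131 to 0.274 on the log2 scale. SPARC, a secreted matrix glycoprotein, had 394 and 353 counts in knockdown libraries, against 89 and 97 in control libraries, and lay nearest. Centring removes the level of a gene, so level took no part in the ranking. With 4 libraries in 2 groups this likeness reflects little more than the size of the difference.

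Of 8 tryptophan importers 6 were tested, and 2 rose, 0 fell and 4 did not pass, with a median log2 fold change of 0.03. As for the lists that follow, such counts stand beside the 36.1% called over all tested genes. The lists were chosen with earlier results of these data known, and their called genes were mostly named for a small adjusted p. Passing the threshold was thus fixed by that pick, and these p-values describe the named genes without testing the lists. The main carrier subunits SLC7A5 and SLC3A2 were abundant and not called, with log2 fold changes of -0.07 and 0.14. SLC43A1, a transporter of large neutral amino acids, rose to 68.7 CPM in knockdown cells, against 39.5 CPM in control cells (edgeR adjusted p = 2.99e-08), and SLC7A8 rose by 0.22 (edgeR adjusted p = 0.0298). Of 12 other users of tryptophan or its amines 5 were tested, 2 rose and 1 fell, with a median of 0.11. MAOA, which oxidizes serotonin, rose by 0.56 (edgeR adjusted p = 0.00154), WARS2, the mitochondrial tryptophanyl-tRNA synthetase, by 0.31 (edgeR adjusted p = 0.0178), and IL4I1, an amino acid oxidase that also acts on tryptophan, fell by 0.34 (edgeR adjusted p = 0.0418). TPH2 was at 0 and TPH1 had 2 to 7 counts, so the first step toward serotonin was not tested.

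Other routes to NAD, with NAMPT and NAPRT among their genes, were expressed where KYNU, HAAO and QPRT were not. Of 13 genes for side branches and NAD synthesis 9 were tested, with 2 higher, 1 lower and 6 not called, at a median of -0.05. NADK2, the mitochondrial kinase that acts on NAD, had 432 and 500 counts in knockdown libraries, against 130 and 147 in control libraries. NADK2 rose by 1.71 ± 0.12 (SE) on the log2 scale (edgeR adjusted p = 1.22e-12), and its groups were far apart. NMNAT2, an adenylyltransferase of NAD synthesis, rose by 0.69 (edgeR adjusted p = 8.03e-05). NAPRT, which starts NAD synthesis from nicotinic acid, fell by 0.69 (edgeR adjusted p = 0.00144). NAMPT, the salvage enzyme for nicotinamide, stood at 77.9 CPM in knockdown cells and 84.7 CPM in control cells and was not called (edgeR adjusted p = 0.308). GOT2, a further mitochondrial kynurenine aminotransferase, stood at 264 CPM in knockdown cells and 243 CPM in control cells, also without a call (edgeR adjusted p = 0.232), and ACMSD, which diverts the pathway from quinolinate, had 4 to 7 counts.

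Of 9 NAD-consuming enzymes 7 were tested, 4 rose and 0 fell, with a median of 0.26. SIRT2 rose by 0.56 (edgeR adjusted p = 8.73e-05), PARP1 by 0.36 (edgeR adjusted p = 0.000604), SIRT6 by 0.31 (edgeR adjusted p = 0.0271) and SIRT1 by 0.26 (edgeR adjusted p = 0.0497). CD38, the NAD glycohydrolase of leukocytes, had at most 1 count.

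Kynurenine and kynurenic acid are ligands of the aryl hydrocarbon receptor AHR. In the list of receptors, their chaperones and AHR response genes, 11 of 14 were tested, 1 rose and 2 fell, with a median of -0.13. AHR itself had 587 and 662 counts in knockdown libraries, against 664 and 706 in control libraries, and was not called (edgeR adjusted p = 0.161). Among its usual target genes CYP1B1, TIPARP, AHRR and NQO1 were not called, with log2 fold changes of -0.24 to -0.11, and CYP1A1 had 4 and 13 counts in knockdown libraries, against 3 and 6 in control libraries. Another AHR response gene of the list, the aldehyde dehydrogenase gene ALDH3A1, did pass and fell by 0.85 (edgeR adjusted p = 0.000543). PTGES3, a cochaperone of the receptor, fell by 0.29 (edgeR adjusted p = 0.00522).

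Of 10 genes on the interferon-gamma route that induces IDO1, 8 were tested, 0 rose and 1 fell, with a median of -0.15. The count that fell was 2 with DESeq2 size factors, with sums over rows and without knockdown replicate 2, and 3 with the replicate block. IRF1, a transcription factor induced by interferon, was not called, with a log2 fold change of -0.13, and SOCS3, a feedback inhibitor of JAK kinases, fell by 0.52 (edgeR adjusted p = 0.000351). In the lysine breakdown list, where AADAT also acts, 7 of 8 genes were tested and 3 rose, with a median of 0.19. ETFDH, which passes electrons to ubiquinone, rose by 0.41 (edgeR adjusted p = 0.00172), GCDH, the glutaryl-CoA dehydrogenase, by 0.34 (edgeR adjusted p = 0.015) and DLST by 0.21 (edgeR adjusted p = 0.0488). KYNU and the aminotransferases need vitamin B6. Of 5 genes for its supply 4 were tested, 1 rose and 0 fell, with a median of 0.00. DESeq2 did not call DLST, GCDH, SIRT1, SIRT6, IL4I1 or WARS2, and SLC7A8 was not called with sums over rows. DLST and SIRT1 were also not called with DESeq2 size factors, with no filter or with sums over rows. IL4I1 was also not called with no normalization factor, with no filter, with limma-voom or with sums over rows. The same calls were lost without single libraries: DLST without any of the 4, SIRT6, WARS2 and SLC7A8 without knockdown replicate 1 or without either control library, GCDH without knockdown replicate 2 or control replicate 2, SIRT1 without knockdown replicate 2 or control replicate 2 (0.12), and IL4I1 without knockdown replicate 1 or control replicate 2 (-0.13).

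**Figure D5:**
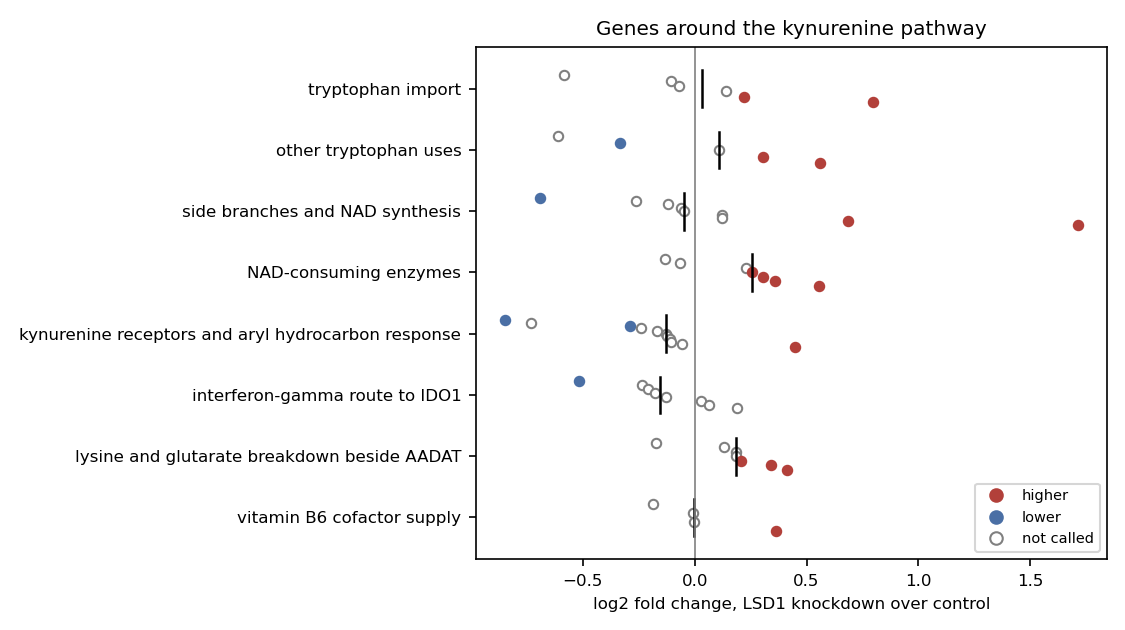
Log2 fold change of knockdown over control for every tested gene of the 8 related lists, red for called higher, blue for called lower and open grey for not called, with a black bar at each list's median. NADK2 at 1.71 is the point farthest to the right, and the list medians lie between -0.15 and 0.26.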

How the data were processed

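The tables hold raw counts of reads for RefSeq transcripts, as deposited, judged from the values: they have no header, all entries are whole numbers and totals differ between libraries. Per the submitters' processing notes, TopHat2, HOMER, edgeR, DESeq 1.8.3 and the hg19 build were involved, without a stated role. How reads were counted, and whether by strand, is not given. Of 38767 rows, 37205 matched a RefSeq gene table and 472 more GENCODE metadata. The 1090 unmatched rows, 1.38% to 1.40% of counts, were left out. The row with the highest mean stood for each of 22841 symbols. Counts were normalized by TMM, filtered with filterByExpr (count 10, total 15) and tested by edgeR 4.0.16 (R 4.3.3; quasi-likelihood, Benjamini-Hochberg over 13247 genes, threshold 0.05), with group as the only term. CPM use TMM-scaled library sizes. The fit was also run on simulated counts drawn from its own means and dispersions, with far fewer changed genes than were called here. That run therefore cannot vouch for the calls. Standard errors are the log2 fold change over the square root of F. Lengths and overlaps come from GENCODE 29 (GRCh38), another build than that of the files, so the only coordinates given are those of the printed RefSeq promoter sequences (GRCh38.p14).

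Members, gene lists and motifs were chosen with earlier results of these data known. Named genes were the members, KDM1A, OPN3, CHML, genes within 5000 bases of a member, up to 4 called genes per related list with the smallest adjusted p, and the 5 genes nearest to KMO. A few list genes are not reported here. Other genes of the lists were named after their values were seen. Alternatives were DESeq2 size factors, no factor, keeping all genes with a count, keeping genes of 1 CPM, DESeq2 1.42.0, limma-voom (limma 3.58.1), a replicate block, sums over the rows of a gene and omission of single libraries. Libraries of a group were not copies of each other: the mean chi-square per gene was 4.30 between knockdown and 5.001 between control libraries, where counting noise gives 1.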

Additional observations from a re-analysis of the deposited data

How the results depend on the processing

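Counts of 2413 genes higher and 2375 lower became 1564 and 1618 with DESeq2 and 2758 and 2091 with no normalization factor. Leaving out 1 library gave 1772 to 1988 higher and 1889 to 1998 lower. Of the members, 4 were called higher in the main setting, 1 (KMO) with DESeq2, and 1 to 3 without a library. Without knockdown replicate 2 the 1 member was KMO. KYAT3 was also not called with no filter, nor AFMID with sums over rows. AADAT was called in none of the 13 settings and KMO, OPN3 and TK1 in all of them. IDO1 was called in none of the 12 that gave it an adjusted p, since DESeq2 gave none. Counts called in the related lists moved by at most 2 genes. Both uncalled, SPOUT1 had a log2 fold change of 0.021 with no normalization factor and of -0.085 to 0.060 without 1 library, and RBMXL1 of -0.060 to 0.22 without 1 library. The numbers of the replicates are not stated to mark shared cultures. Deviations of same-numbered libraries correlated at 0.138 over 10935 genes, and the replicate block gave 2629 higher and 2630 lower, with 4 members higher. At this depth, 3 counts were 0.232 to 0.247 CPM, so TDO2, KYNU, HAAO and QPRT could not be compared.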
